A study of Arabidopsis thaliana with 4 samples.

Results

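The plastid genome of Arabidopsis thaliana is covered here by the 133 rows of the deposited expression table whose locus code begins with ATCG, out of 33602 rows in all. These rows were followed across 4 RNA-seq libraries. All RNA was from root tips 3 mm long, cut from wild-type Col-0 seedlings that were 5 days old and had grown on plates of 1/2 MS medium with sucrose. Seedlings were moved to fresh plates that held 0.5 µM narciclasine or none, and roots were taken after 2 or 12 h. Narciclasine, a plant alkaloid known from daffodils, binds the large subunit of cytosolic ribosomes. The groups were narciclasine 2 h, control 2 h, narciclasine 12 h and control 12 h, with 1 library each. No difference below therefore has a replicate check, and every comparison is between single libraries.

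Plastids keep a small genome of bacterial origin that encodes parts of the photosynthetic complexes, part of the plastid ribosome and the core subunits of a bacterial-type RNA polymerase. This polymerase works with nuclear-encoded sigma factors, and the same genome is also read by a phage-type polymerase encoded in the nucleus. Roots hold non-green plastids, in which transcripts of photosynthesis genes are known to be scarce compared with leaves.

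Of the 133 plastid rows, 79 were above 0 in at least 1 library, 55 were above 0 in all 4 and 54 were listed at 0 throughout. The number above 0 was 63 in narciclasine 2 h, 70 in control 2 h, 70 in narciclasine 12 h and 66 in control 12 h. Where the reads of a gene could be counted, a row at 0 leaves room for up to 3 reads. That is 0.211 CPM (reads scaled by library size only) in narciclasine 2 h, 0.206 in control 2 h, 0.204 in narciclasine 12 h and 0.253 in control 12 h. Whether reads that match more than 1 place were counted is not known here. For genes with a second copy a value of 0 therefore sets no such limit. Among all rows of the series, 66.7% to 67.1% were above 0 in a library.

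Levels are given as RPKM, which scales reads by gene length and by the size of the library. Whole reads were recovered from them, on the smallest length that gives whole reads for each row. This smallest length is called the row's length here, and the length used by the authors may be a multiple of it. The libraries held 14244108 reads in narciclasine 2 h, 14541412 in control 2 h, 14724075 in narciclasine 12 h and 11880278 in control 12 h, of which 97.5% to 98.0% lay on genes. The table gives codes without gene names, so a row took a name where its length was that of exactly 1 gene in RefSeq's annotation of the plastid genome. This held for 53 rows. In the order of their codes 52 of them followed the order of the genes in the genome, and the other row, ATCG00790, was left without a name. Notes in the RefSeq annotation describe 5 of the named codes. For 4 of them the note gives the product of the gene named by length, and for ATCG00430, named ndhK by length, it gives photosystem II reaction center protein G, from the time when this gene was called psbG. A further 23 rows, ATCG00790 among them, had the length of several genes or could have. For 4 rows the smallest length was that of no gene, and multiples of it were tried for ATCG00790 only. These are called by their codes.

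Leaving tRNA genes aside, no gene that lies wholly in the inverted repeat had a row above 0 by its length. Most tRNA genes in the repeat share their length with tRNA genes elsewhere. The rows between ATCG00820 (rps19) and ATCG01010 (ndhF), and those after ATCG01130 (ycf1), were all at 0 in every library. If all codes follow the order of the genome, these include the tRNA genes of the repeat. RefSeq lists 32 plastid genes with a full second copy, among them rRNA genes, ycf2, ndhB, rps7 and rpl2. Of the 18 of these that are not tRNA genes, 0 had the length of a row above 0, and the row that RefSeq ties to ribosomal protein L2, ATCG01310, was at 0 in every library. Of 74 non-tRNA genes without a full second copy, 63 had the length of a row above 0. How the authors treated reads that match 2 places is not given in the sources used here, and its part in the rows at 0 was not tested.

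The plastid rows above 0 comprised a few rows at high RPKM and many at low RPKM. A mean over the 4 libraries of 5 RPKM or more, a split chosen after the values were seen, was reached by 18 rows. Together they held 90.8% of the plastid reads in narciclasine 2 h, 91.5% in control 2 h, 89.2% in narciclasine 12 h and 89.7% in control 12 h. Of the 18, 7 were ribosomal protein genes, 3 photosynthesis genes, 3 tRNA rows, 3 rows with the length of genes of several classes, 1 a polymerase gene and 1 ycf1.

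**Figure D1:**
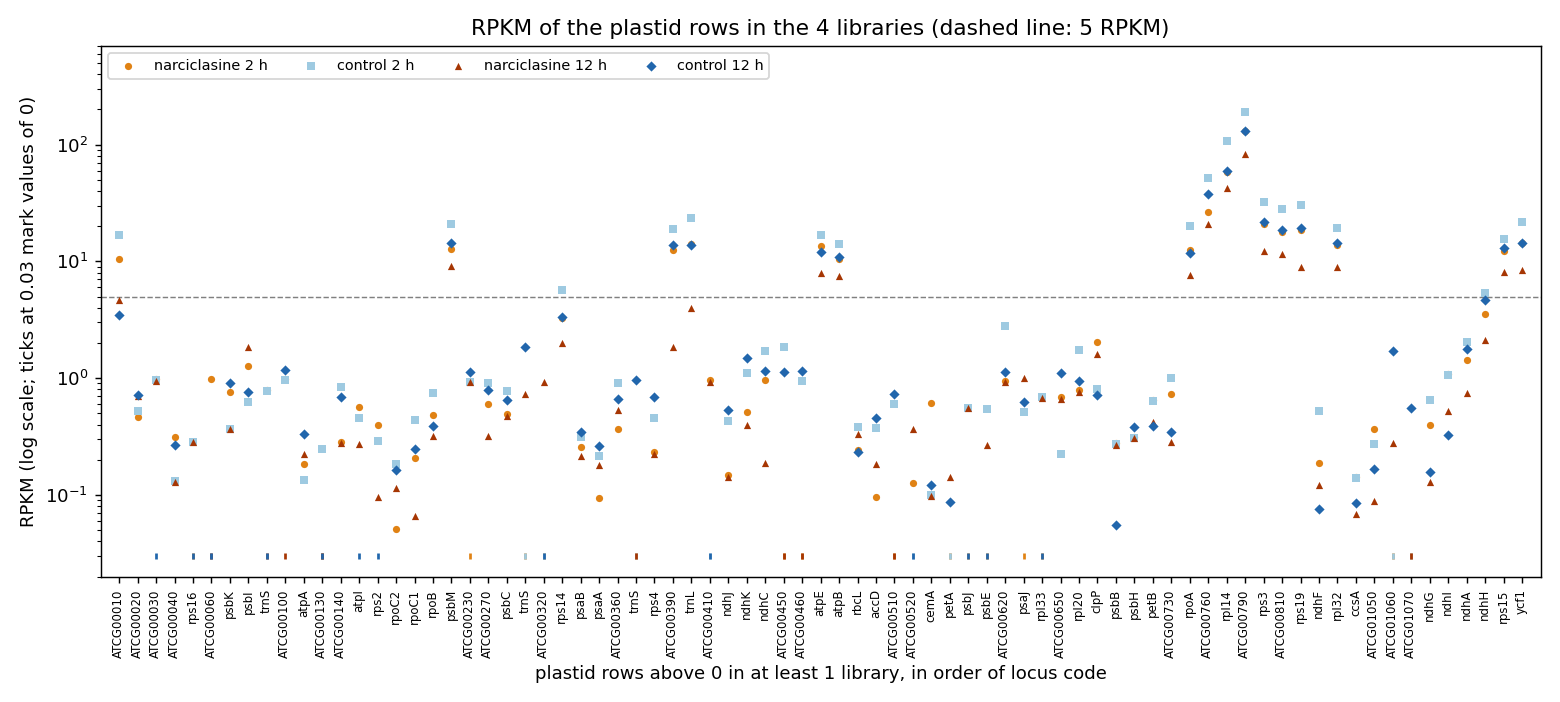
RPKM on a log axis for 77 of the 79 plastid rows above 0 in at least 1 library, in the order of their locus codes, with 1 marker for each library and small ticks at the foot for values of 0. The rows drawn from rpoA to rps19 stand above 5 RPKM in all 4 libraries, and control 2 h is the highest library in every row drawn with a mean of 5 RPKM or more.

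Among ribosomal protein genes, rpl14, which encodes a protein of the large subunit, had 57.8 RPKM in narciclasine 2 h, 106 in control 2 h, 42.3 in narciclasine 12 h and 59.3 in control 12 h. These values came from 304, 571, 230 and 260 reads in the same order. The small subunit gene rps3 had 21.1 RPKM in narciclasine 2 h, 32.3 in control 2 h, 12.2 in narciclasine 12 h and 21.8 in control 12 h. For rpl32, of the large subunit, the values were 13.7, 19.5, 8.97 and 14.3 RPKM in the same order, and for rps15, of the small subunit, 12.4, 15.5, 8.14 and 12.9 RPKM. In each of these 4 genes narciclasine was below the control of its time, control 2 h was the highest library and narciclasine 12 h the lowest. Of the 13 rows named as ribosomal protein genes, 7 had a mean of 5 RPKM or more and the highest of the others was rps14, at 3.24 RPKM in narciclasine 2 h, 5.67 in control 2 h, 2.02 in narciclasine 12 h and 3.33 in control 12 h.

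Most ribosomal protein genes at high RPKM were neighbours, a run picked out after the values were seen. The 9 consecutive codes from ATCG00740 to ATCG00820 include rpoA, rpl14, rps3, rps19 and the rows ATCG00760, ATCG00790 and ATCG00810. ATCG00790 was the highest plastid row, with 131 RPKM in narciclasine 2 h, 190.1 in control 2 h, 83.2 in narciclasine 12 h and 130.4 in control 12 h. Its smallest possible length of 102 bases is that of psbT, whose place in the genome lies elsewhere, and 4 times that length is the length of rpl16, so its reads may be up to 4 times those counted here. ATCG00760, at 26.5, 51.9, 20.9 and 37.7 RPKM in the same order, has the length of rpl36, psaI and petG. ATCG00810, at 18.0, 28.3, 11.5 and 18.6 RPKM, has the length of rpl22 and petD. Together the 9 rows held 1389 reads in narciclasine 2 h, 2293 in control 2 h, 909 in narciclasine 12 h and 1167 in control 12 h, which was 42.9% to 45.8% of the plastid reads of a library. All shares of plastid reads given here count ATCG00790 on 102 bases. With more reads on it, shares of sets that hold it would be larger and those of other sets smaller. In all 9 rows control 2 h was the highest library and narciclasine 12 h the lowest.

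At the end of this run stands rps19, whose start lies in the inverted repeat, so that its sequence shows how far a gene with reads reaches into the repeated part. The coding sequence from RefSeq (TAIR10.1, minus strand, 279 bases) is given with the 113 bases that lie in stretches with a second copy in the plastid genome in capitals.

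rps19: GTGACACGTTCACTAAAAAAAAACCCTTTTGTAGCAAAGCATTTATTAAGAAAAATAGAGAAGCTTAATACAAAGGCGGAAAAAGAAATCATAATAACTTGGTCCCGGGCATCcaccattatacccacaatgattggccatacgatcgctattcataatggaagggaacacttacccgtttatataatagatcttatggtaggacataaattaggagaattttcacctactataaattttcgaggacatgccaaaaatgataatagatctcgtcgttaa

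The gene rps19 had 18.6 RPKM in narciclasine 2 h, 30.6 in control 2 h, 9.01 in narciclasine 12 h and 19.3 in control 12 h, from 74, 124, 37 and 64 reads. Of its 50-base stretches, 72.2% occur once in the nuclear, mitochondrial and plastid genomes together. The same measure was 100% for rpl14 and rps3.

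The polymerase genes differed widely in level. The gene rpoA, for the alpha subunit, lies in the run of ribosomal protein genes and had 12.6 RPKM in narciclasine 2 h, 20.1 in control 2 h, 7.61 in narciclasine 12 h and 11.7 in control 12 h. The genes for the beta and beta-prime subunits stand next to each other elsewhere in the genome and were low. For rpoB the values were 0.480 RPKM in narciclasine 2 h, 0.748 in control 2 h, 0.316 in narciclasine 12 h and 0.392 in control 12 h. For rpoC1 they were 0.206, 0.438, 0.0665 and 0.247 RPKM in the same order, and for rpoC2 0.0510, 0.183, 0.115 and 0.163 RPKM. The 3 low genes rested on 2 to 35 reads each. In rpoA, rpoB, rpoC1 and rpoC2 narciclasine was below the control of its time at both 2 h and 12 h.

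Photosynthesis genes were low apart from 3. Of the 22 rows named or classed as photosynthesis genes, 17 were above 0 in narciclasine 2 h, 20 in control 2 h, 22 in narciclasine 12 h and 19 in control 12 h. Their median was 0.301 RPKM in narciclasine 2 h, 0.514 in control 2 h, 0.325 in narciclasine 12 h and 0.507 in control 12 h. The median of the 13 ribosomal protein rows was 12.4, 15.5, 8.14 and 12.9 RPKM in the same order. For comparison, the median over all 33602 rows was 1.63 to 2.12 RPKM. That median includes 9206 rows at 0 in all libraries, while the class medians leave out rows at 0 throughout. With this difference in rows, the ribosomal protein median was above and the photosynthesis median below that of the whole table in each library.

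**Figure D2:**
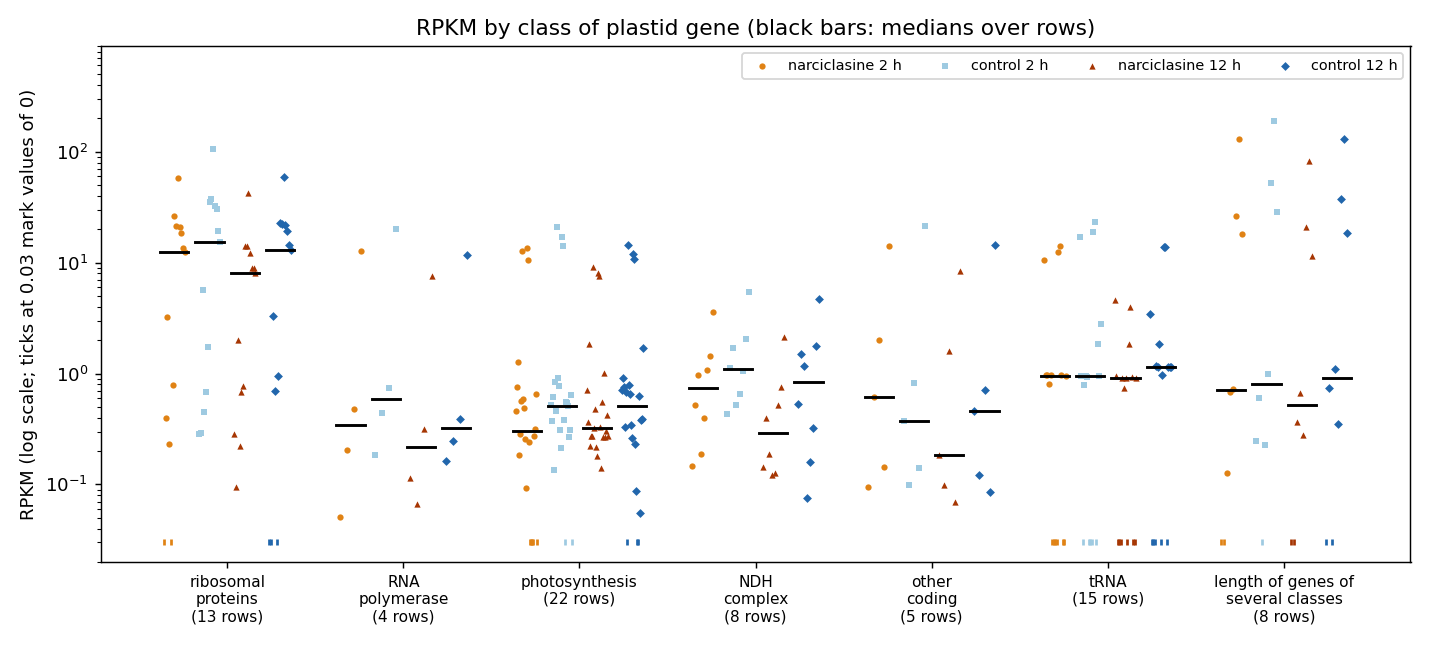
RPKM on a log axis for the rows of each class in each library, 1 point for each row, with black bars at the median over rows. The ribosomal protein medians of 8.14 to 15.5 RPKM lie above those of the polymerase, photosynthesis and NDH classes in all 4 libraries.

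The 3 photosynthesis genes with a mean of 5 RPKM or more were atpB and atpE, for the beta and epsilon subunits of the plastid ATP synthase, and psbM, for a small subunit of photosystem II. For atpB the values were 10.6 RPKM in narciclasine 2 h, 14.0 in control 2 h, 7.53 in narciclasine 12 h and 10.8 in control 12 h. For atpE they were 13.5, 16.9, 8.00 and 12.0 RPKM in the same order. The genes are transcribed together and share bases, so their reads are not wholly separate. The junction from RefSeq (TAIR10.1, minus strand, 60 bases) is given with the 4 shared bases, which hold the start codon of atpE and the stop codon of atpB, in capitals.

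atpB to atpE: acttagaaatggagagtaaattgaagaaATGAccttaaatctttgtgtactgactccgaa

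The other named ATP synthase genes were low. The alpha subunit gene atpA had 0.184 RPKM in narciclasine 2 h, 0.135 in control 2 h, 0.223 in narciclasine 12 h and 0.331 in control 12 h, and atpI, for a membrane subunit, had 0.562, 0.458, 0.272 and 0 RPKM in the same order. The gene psbM had 12.7 RPKM in narciclasine 2 h, 21.0 in control 2 h, 9.06 in narciclasine 12 h and 14.4 in control 12 h, from 19, 32, 14 and 18 reads. Its 105 bases (RefSeq, TAIR10.1, minus strand) are given to show how little sequence these reads cover, with the start and stop codons in capitals.

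psbM: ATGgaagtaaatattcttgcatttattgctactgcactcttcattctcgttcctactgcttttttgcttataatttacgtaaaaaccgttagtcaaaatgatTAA

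Genes known for abundant RNA in leaves rested on few reads. The gene rbcL, for the large subunit of Rubisco, had 0.244 RPKM in narciclasine 2 h, 0.382 in control 2 h, 0.330 in narciclasine 12 h and 0.234 in control 12 h, from 4 to 8 reads. The reaction centre genes psaA and psaB of photosystem I had 0.0935 and 0.255 RPKM in narciclasine 2 h, 0.214 and 0.312 in control 2 h, 0.181 and 0.216 in narciclasine 12 h, and 0.262 and 0.344 in control 12 h. The photosystem II reaction centre genes psbA and psbD have the same length, which is that of ATCG00020 and ATCG00270, and these rows lay between 0.320 and 0.907 RPKM in all libraries. The photosystem II core antenna gene psbC lay between 0.478 and 0.774 RPKM, and the cytochrome b6f genes petB and petA between 0.390 and 0.650 RPKM and between 0 and 0.141 RPKM. The small subunit genes psaJ and psbI held 0 to 3 reads in a library.

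Among the other coding genes 1 had a mean of 5 RPKM or more. This gene, ycf1, which encodes a large protein of the inner plastid envelope, had 14.3 RPKM in narciclasine 2 h, 21.5 in control 2 h, 8.49 in narciclasine 12 h and 14.3 in control 12 h. With 5361 bases it held 1090, 1679, 670 and 910 reads in the same order, which was 32.0% to 33.9% of the plastid reads of a library. That share would be smaller if ATCG00790 held more reads than were counted. Of its 50-base stretches 81.5% occur once in the 3 genomes. The other coding rows were low, among them clpP, for a subunit of the plastid Clp protease, at 2.02 RPKM in narciclasine 2 h, 0.815 in control 2 h, 1.61 in narciclasine 12 h and 0.712 in control 12 h. In clpP narciclasine lay above the control of its time at 2 h and at 12 h. The gene accD, for a subunit of acetyl-CoA carboxylase, lay between 0.0957 and 0.459 RPKM, and cemA, for an envelope protein, between 0.0984 and 0.610 RPKM.

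Genes of the NDH complex, which carries electrons around photosystem I, ranged from levels like those of the low photosynthesis genes to several times higher. Their median was 0.742 RPKM in narciclasine 2 h, 1.09 in control 2 h, 0.294 in narciclasine 12 h and 0.844 in control 12 h, which in narciclasine 12 h was below the photosynthesis median. The highest, ndhH, had 3.56 RPKM in narciclasine 2 h, 5.41 in control 2 h, 2.13 in narciclasine 12 h and 4.70 in control 12 h. For ndhA the values were 1.43, 2.03, 0.753 and 1.79 RPKM in the same order. For ndhC they were 0.967, 1.71, 0.187 and 1.16 RPKM, and for ndhK 0.518, 1.12, 0.401 and 1.49 RPKM. In these 4 genes narciclasine was below the control of its time at both times. The gene ndhI went the other way at 12 h, with 0.523 RPKM in narciclasine 12 h and 0.324 in control 12 h, from 4 and 2 reads. At 2 h it held 8 reads in each library, at 1.08 RPKM in narciclasine 2 h and 1.06 in control 2 h. The lowest 3, ndhG, ndhJ and ndhF, lay between 0.0751 and 0.648 RPKM, and ndhF was above its control at 12 h on 4 and 2 reads. Of the tRNA rows, trnL had 14.0 RPKM in narciclasine 2 h, 23.5 in control 2 h, 4.00 in narciclasine 12 h and 13.9 in control 12 h, from 17, 29, 5 and 14 reads. ATCG00390 and ATCG00010, each with a length shared by several tRNA genes, had 12.5 and 10.6 RPKM in narciclasine 2 h, 18.8 and 17.0 in control 2 h, 1.86 and 4.65 in narciclasine 12 h, and 13.8 and 3.46 in control 12 h. The next highest tRNA row, ATCG00620, held 1 to 3 reads.

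Sequence features of the named rows were compared between those above and those below a mean of 5 RPKM. Of the 13 named rows with a mean of 5 RPKM or more, 11 lie on the minus strand and 10 consist wholly of 50-base stretches found once in the 3 genomes, against 24 and 29 of the 39 named rows below 5 RPKM. Their median A+T content was 65.2%, against 62.1%. The motifs TTGACA and TATAAT, which occur in bacterial-type promoters, were searched on both strands from 250 bases before to 50 bases after each gene start in RefSeq. TTGACA was found in 3 of the 13 higher rows and in 2 of the 39 lower ones, and in 21.7% of all 129 plastid windows and 20.0% of 38317 windows of all RefSeq genes. TATAAT was found in 7 of the 13 and 14 of the 39, and in 38.8% of plastid windows and 37.7% of all windows. A match is a description of letters and not a site.

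The summed plastid reads, 0.0142% to 0.0344% of a library, were compared between narciclasine and control. No rRNA gene had the length of a row above 0, so the sum is not the whole plastid transcriptome. Any selection of kinds of RNA when the libraries were made was not examined. All plastid rows together held 3213 reads in narciclasine 2 h, 5006 in control 2 h, 2097 in narciclasine 12 h and 2720 in control 12 h. This was 226 CPM in narciclasine 2 h (95% counting interval 218 to 234), 344 in control 2 h (335 to 354), 142 in narciclasine 12 h (136 to 149) and 229 in control 12 h (220.4 to 238). After TMM scaling, which sets the bulk of genes level between libraries, the ratio was 0.639 at 2 h (0.611 to 0.668), which is 1.57-fold lower in narciclasine. At 12 h it was 0.602 (0.568 to 0.637), which is 1.66-fold lower in narciclasine. Between the controls, 12 h over 2 h, it was 0.683 (0.652 to 0.716), or 1.46-fold lower in control 12 h, so the controls differed by nearly as much as narciclasine and control did. Intervals cover counting error only and treat reads as independent, so they are too narrow where reads are not independent molecules. They say nothing of the spread between plants.

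The choice of control library moved the 2 h value. Set against control 12 h, narciclasine 2 h had a ratio of 0.935 (0.888 to 0.984). Set against control 2 h, narciclasine 12 h had a ratio of 0.411 (0.391 to 0.433). At 12 h the summed signal of narciclasine was thus below both control libraries, and at 2 h it lay close to control 12 h. The mitochondrial rows, the other organelle genome of the table, had other ratios. These were 0.868 (0.813 to 0.927) at 2 h, 1.04 (0.984 to 1.11) at 12 h and 1.23 (1.15 to 1.31) between the controls, and in each comparison the interval lay above that of the plastid rows. In RNA from whole root tips fewer plastid-rich cells and less plastid RNA in each cell cannot be told apart.

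**Figure D3:**
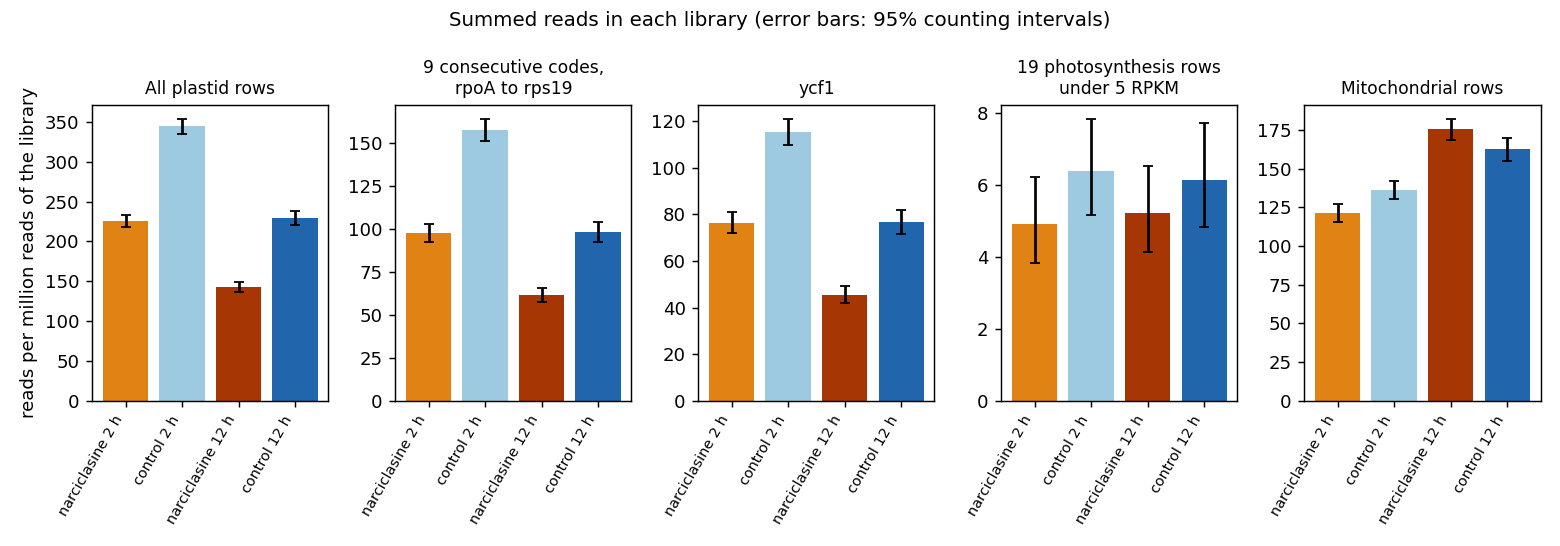
Summed reads, scaled to CPM, in each of the 4 libraries, with 95% counting intervals, for all plastid rows, the 9 consecutive codes from rpoA to rps19, ycf1, the 19 photosynthesis rows with a mean under 5 RPKM and the mitochondrial rows. The first 3 panels have control 2 h highest and narciclasine 12 h lowest, and the intervals of the low photosynthesis rows overlap in all 4 libraries.

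Summed by class, the ribosomal protein rows had a ratio of 0.600 at 2 h (0.553 to 0.650), 0.611 at 12 h (0.550 to 0.679) and 0.636 between the controls (0.584 to 0.693). The polymerase rows had a ratio of 0.596 at 2 h (0.500 to 0.709), 0.631 at 12 h (0.499 to 0.797) and 0.602 between the controls (0.497 to 0.726), and most of their reads were on rpoA. For the photosynthesis rows it was 0.737 at 2 h (0.645 to 0.841), 0.698 at 12 h (0.596 to 0.817) and 0.810 between the controls (0.704 to 0.930). Ribosomal and polymerase genes thus had lower ratios than photosynthesis genes in all 3 comparisons. The intervals of polymerase and photosynthesis genes overlapped in each, and those of ribosomal protein and photosynthesis genes overlapped at 2 h and 12 h and not between the controls.

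The 19 photosynthesis rows with a mean under 5 RPKM held 70 reads in narciclasine 2 h, 93 in control 2 h, 77 in narciclasine 12 h and 73 in control 12 h. Their ratio was 0.749 at 2 h (0.541 to 1.03), 0.823 at 12 h (0.590 to 1.15) and 0.987 between the controls (0.716 to 1.36), and each interval includes 1. The 18 rows with a mean of 5 RPKM or more had a ratio of 0.634 at 2 h (0.605 to 0.665), 0.598 at 12 h (0.563 to 0.636) and 0.670 between the controls (0.638 to 0.704). At 2 h and 12 h the interval of the low photosynthesis rows takes in the value of the 18 rows, so a difference between the 2 sets was not detectable at this depth. Between the controls the 2 intervals do not overlap. Photosynthesis rows made up 12.2% of plastid reads in narciclasine 2 h (95% exact binomial interval 11.1 to 13.3), 10.5% in control 2 h (9.71 to 11.4), 14.5% in narciclasine 12 h (13.0 to 16.1) and 12.5% in control 12 h (11.3 to 13.8). Polymerase rows made up 6.14% to 6.97% in all libraries.

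The NDH and tRNA rows had the lowest summed ratios of the classes at 12 h. The NDH rows held 110 reads in narciclasine 2 h, 178 in control 2 h, 64 in narciclasine 12 h and 114 in control 12 h. Their ratio was 0.615 at 2 h (0.480 to 0.784), 0.438 at 12 h (0.318 to 0.600) and 0.805 between the controls (0.631 to 1.02). The tRNA rows had a ratio of 0.607 at 2 h (0.413 to 0.884), 0.380 at 12 h (0.204 to 0.684) and 0.604 between the controls (0.397 to 0.905). The 12 h interval of the NDH rows overlaps that of the ribosomal protein rows, and that of the tRNA rows does so too.

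Row by row, a gene was counted as differing where its ratio was at least 2-fold and its 95% counting interval excluded 1, among 19381 genes that reached 1 CPM in 1 library or more. Of the 79 plastid rows above 0, 26 passed this filter, 8 of them ribosomal protein genes, 4 photosynthesis genes, 4 NDH genes, 2 polymerase genes, 3 tRNA rows, ycf1, clpP and 3 rows with the length of genes of several classes. A row can pass the filter through its highest library alone, so counts and medians over the 26 rows describe those rows and not all plastid rows.

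In narciclasine 2 h over control 2 h, 0 of the 26 rows were higher and 2 were lower, against 4.73% and 2.06% of all genes compared. The 2 were ATCG00760, with 43 reads in narciclasine 2 h and 86 in control 2 h (ratio 0.498, 0.337 to 0.726), and ndhF, for a core subunit of the NDH complex, with 6 and 17 reads (0.351, 0.113 to 0.934). Of the 4 libraries ndhF reached 1 CPM in control 2 h alone, the library it was called lower against. In RefSeq ndhF shares 39 bases with the short copy of ycf1 on the opposite strand, and the use of strand in counting is not given in the sources used here. The median log2 ratio of the 26 rows was −0.68, against 0.00 for all genes compared, and 25 of the 26 rows had a ratio below 1. The exception was clpP, with 17 reads in narciclasine 2 h and 7 in control 2 h (2.42, 0.952 to 6.89). At a threshold of 1.5-fold 10 rows were lower, against 5.79% of all genes, and 0 were higher, against 10.9%. Against control 12 h instead, 0 of the 26 rows were higher and 0 lower, against 6.39% and 5.84% of all genes.

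In narciclasine 12 h over control 12 h, 0 of the 26 rows were higher and 6 were lower, against 11.6% and 16.5% of all genes compared. Among the 6 were ATCG00390, with 2 reads in narciclasine 12 h and 12 in control 12 h (ratio 0.130, 0.0141 to 0.584), and trnL, with 5 and 14 reads (0.279, 0.0786 to 0.819). The NDH genes ndhK (4 and 12 reads, ratio 0.260, 0.0612 to 0.859), ndhA (12 and 23 reads, 0.407, 0.185 to 0.853) and ndhH (37 and 66 reads, 0.438, 0.284 to 0.664) were also lower. The sixth was rps19, with 37 and 64 reads (0.451, 0.293 to 0.687). Of the 4 libraries ndhK reached 1 CPM in control 12 h alone, and ATCG00390 in the controls alone. The median log2 ratio of the 26 rows was −0.72, against −0.04 for all genes compared, and 23 of the 26 rows had a ratio below 1. The exceptions were clpP (14 reads in narciclasine 12 h and 5 in control 12 h), ndhF (4 and 2) and ATCG00010 (5 and 3), and each of their intervals includes 1. At 1.5-fold 16 rows were lower, against 26.2% of all genes, and 0 were higher, against 21.0%. Against control 2 h instead, 21 of the 26 rows were lower and 0 higher, against 16.8% and 12.4% of all genes.

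**Figure D4:**
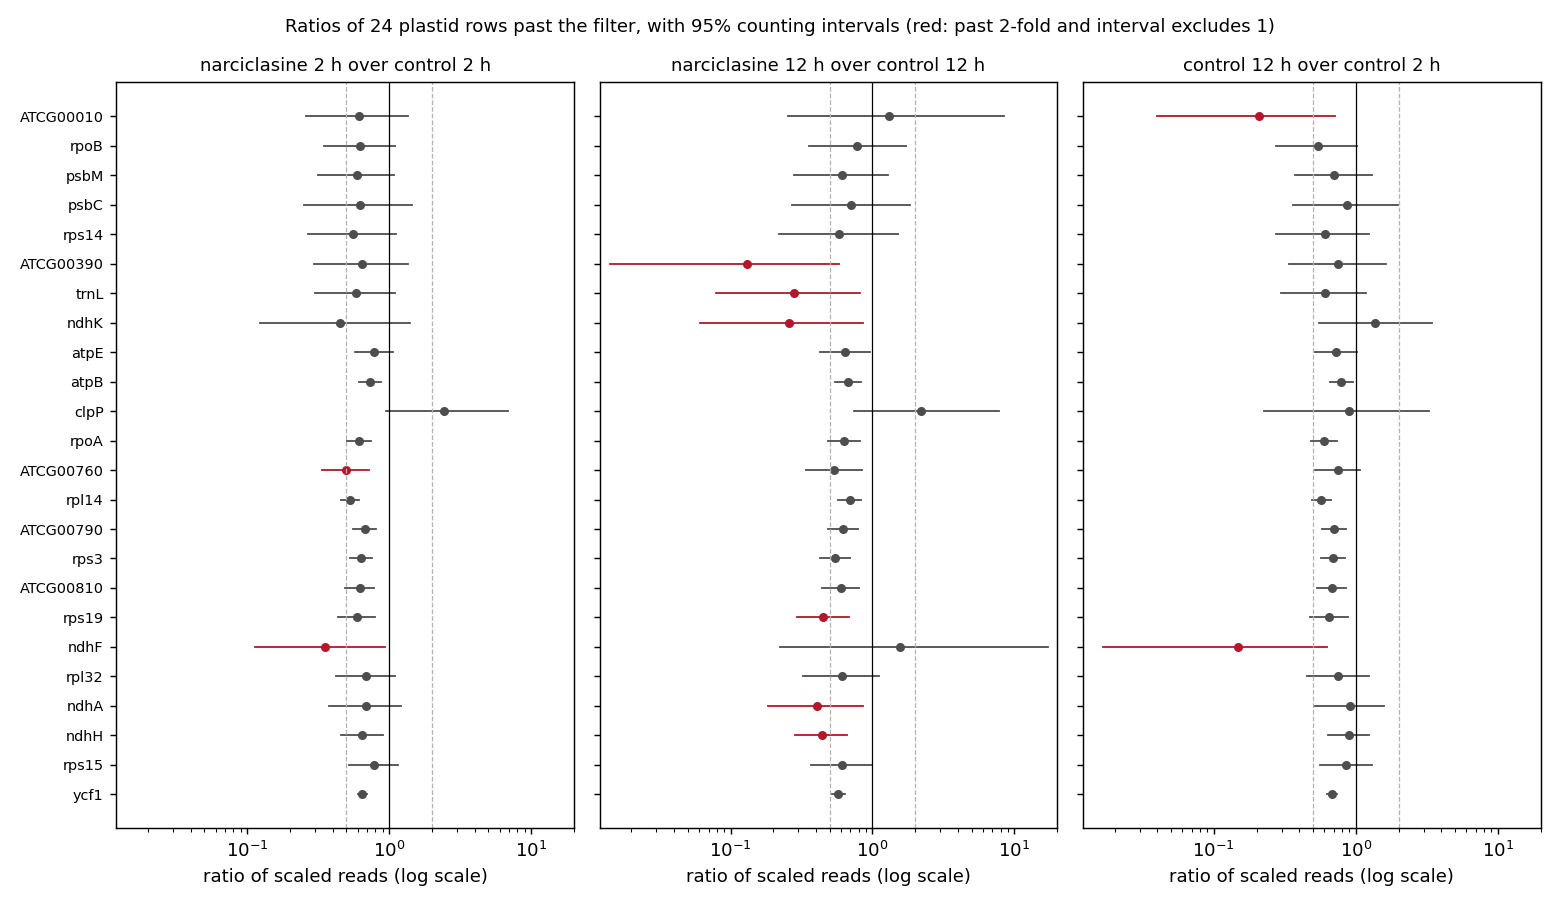
Ratios of scaled reads on a log axis, with 95% counting intervals, for 24 of the 26 plastid rows past the filter in the 3 comparisons. Rows past 2-fold with an interval that excludes 1 are in red, and in every panel most rows lie between a ratio of 0.5 and 1.

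In control 12 h over control 2 h, 0 of the 26 rows were higher and 2 were lower, against 4.33% and 1.68% of all genes compared. The 2 were ATCG00010, with 3 reads in control 12 h and 18 in control 2 h (ratio 0.210, 0.0395 to 0.718), and ndhF, with 2 and 17 reads (0.148, 0.0166 to 0.623). Both reached 1 CPM in control 2 h alone, so they were compared only because they were high there. The median log2 ratio of the 26 rows was −0.52, against −0.01, and 25 of the 26 rows had a ratio below 1. The exception was ndhK, with 12 reads in control 12 h and 11 in control 2 h. At 1.5-fold 7 rows were lower, against 5.47% of all genes, and 0 were higher, against 10.3%. This comparison shares control 2 h with the 2 h comparison and control 12 h with the 12 h comparison, so their values are not independent of each other.

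Of the 18 rows with a mean of 5 RPKM or more, ratios at 12 h ran from 0.130 for ATCG00390 (2 reads in narciclasine 12 h and 12 in control 12 h) to above 1 for ATCG00010 (5 and 3 reads). Among the 6 rows with over 100 reads in each library, a limit set after the values were seen, the ratio was 0.628 for rpoA (0.485 to 0.812), 0.618 for ATCG00790 (0.484 to 0.786), 0.691 for rpl14 (0.576 to 0.828) and 0.542 for rps3 (0.425 to 0.689). It was 0.575 for ycf1 (0.519 to 0.636) and 0.675 for atpB (0.545 to 0.835), and these 6 intervals all include the summed ratio of 0.602. The 6 rows are themselves part of that sum, so this is no independent check. At 2 h the lowest ratio of the 6 rows was that of rpl14, 0.530 (0.459 to 0.610). The highest was that of atpB, 0.734 (0.615 to 0.875). The others lay between, with ycf1 at 0.646 (0.598 to 0.698). The intervals of rpl14 and atpB do not overlap, but these extremes were picked after the values were seen. Whether the genes differ was not tested.

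Nuclear genes for organelle transcription were listed beside the plastid rows, and 5 of 6 sigma factors, 3 of 3 phage-type polymerases and 12 of 12 polymerase-associated proteins passed the filter. At 2 h 0 of them were higher and 0 lower, against 4.73% and 2.06% of all genes compared. At 12 h the phage-type polymerase genes RPOTM (AT1G68990), whose product works in mitochondria, and RPOTMP (AT5G15700), whose product is sent to both organelles, were higher in narciclasine. RPOTM had 24.7 RPKM in narciclasine 12 h and 6.87 in control 12 h (3.47-fold, 3.05 to 3.97), and RPOTMP 14.3 and 3.77 RPKM (3.67-fold, 3.10 to 4.36). The plastid form RPOTP (AT2G24120) had 4.92 and 3.02 RPKM (ratio 1.57, 1.27 to 1.96). Of the sigma factors, SIG6 (AT2G36990) was lower, with 1.05 RPKM in narciclasine 12 h and 2.26 in control 12 h (ratio 0.448, 0.278 to 0.710). Of the polymerase-associated proteins, PAP12 (AT5G24314) was lower, with 3.15 and 8.47 RPKM (0.360, 0.226 to 0.563). The list medians on the log2 scale at 12 h were 1.80 for the phage-type polymerases, −0.02 for the sigma factors and −0.23 for the polymerase-associated proteins, against −0.04 for all genes compared. Over the 3 lists 2 genes were higher and 2 lower at 12 h, against 11.6% and 16.5% of all genes compared. Between the controls 0 were higher and 0 lower, against 4.33% and 1.68%.

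Markers of green tissue were measured beside the plastid rows. The 15 nuclear-encoded shoot markers, such as the Rubisco activase gene RCA, summed to 49.4 RPKM in narciclasine 2 h, 64.0 in control 2 h, 39.0 in narciclasine 12 h and 133.9 in control 12 h. Of the 9 that passed the filter, 1 was lower at 2 h (LHCB1.3, whose reads may be shared with near-identical copies) and 8 were lower at 12 h, while 6 were higher in control 12 h than in control 2 h. Over all genes compared, 2.06% were lower at 2 h, 16.5% lower at 12 h and 4.33% higher between the controls. RCA had 6.92 RPKM in narciclasine 2 h, 9.17 in control 2 h, 6.58 in narciclasine 12 h and 23.9 in control 12 h. The Rubisco small subunit genes RBCS1B and RBCS2B were at 0 in all libraries. How reads that match more than 1 place were counted is not known here, so these values need not mean absent RNA. Between the controls the summed plastid ratio was below 1 while these 6 markers were higher, and at 12 h the summed plastid ratio was below 1 and 8 markers were lower in narciclasine. The 7 root tip markers, among them the root stem cell genes PLT1 and PLT2, were above 0 in all libraries and summed to 102 RPKM in narciclasine 2 h, 92.6 in control 2 h, 52.4 in narciclasine 12 h and 52.0 in control 12 h. Of these, WOX5 was lower at 2 h, PLT2 was higher at 12 h, and PLT2, WOX5 and FEZ were lower in control 12 h than in control 2 h, where the shares over all genes were 2.06% lower, 11.6% higher and 1.68% lower in the same order. The part of either marker list in the plastid values was not tested.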

How the data were processed

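Total RNA was made into Illumina libraries, per the labels' protocols. Bowtie 0.12.2, edgeR and mm8 stand in the submitters' processing notes. Since mm8 is a mouse build, the build is unclear here and coordinates were left out. The authors deposited RPKM values, per the file headers. All 24396 rows above 0 gave whole reads (within 0.01 read), on the smallest length that allows it, so reads may be too low by a common factor.

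Reads were scaled by TMM (trimming 30% of log ratios and 5% of levels), and genes that reached 1 CPM in 1 library or more were compared. With 1 library per group no test was made. Ratios carry exact 95% intervals (Clopper-Pearson on the share of reads). The rule for calls and the recovery of reads were tested on simulated data. The recovery test wrote recovered reads back as RPKM, so it could not show a common factor. The reads simulated for calls held counting error only, with no spread between plants. Names came from RefSeq lengths (TAIR10.1), with spliced lengths equal to the implied length. Each class's 4 highest coding rows, the polymerase genes, up to 4 tRNA rows and the rows past 2-fold were named, except that some items are not reported here. The members and lists were chosen with earlier results of these data known. Tools were Python 3.11.15 with scipy 1.17.1, numpy 2.4.6, matplotlib 3.10.9 and pandas 2.3.3.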

Additional observations from a re-analysis of the deposited data

How the results depend on the processing

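No paired analysis was possible because each group held 1 library, and for the same reason no replicate could be left out. The counts of plastid rows past 2-fold rested on few reads and moved with the setting, while the summed ratios stayed below 1 in every setting tried. Lower rows at 2 h numbered 2 as reported, 1 with library size only, 1 with a filter of 5 CPM, 0 on the log2(RPKM + 1) scale, 0 against the control of the other time and 10 at 1.5-fold. At 12 h they numbered 6 as reported, 2 with a filter of 5 CPM, 3 on the log2(RPKM + 1) scale, 21 against the control of the other time and 16 at 1.5-fold. Between the controls they numbered 2 as reported, 0 with a filter of 5 CPM, 1 on the log2(RPKM + 1) scale and 7 at 1.5-fold. Scaled to the plastid total of each library, 0 rows were lower and 1 higher at 2 h, 1 lower and 1 higher at 12 h, and 1 lower between the controls. With no filter 1 row was higher between the controls. Of 80 values of the 10 calls under the alternatives, 62 stayed past the threshold, 17 did not, and 1 reversed, which was ndhF in narciclasine 2 h over control 12 h (ratio 2.37, on 6 and 2 reads). Settings that changed only the filter, the genes kept or the threshold reuse the same ratios, so a call kept there could not be lost. Calls that such a setting left out were not counted. The 62 therefore overstate how stable the calls were. The summed ratio at 2 h was 0.935 against the control of the other time and 0.706 without the rows from rpoA to rps19 and ycf1. At 12 h it was 0.411 against the control of the other time, and between the controls 0.782 without those rows. For the summed ratio these settings, and 4 times the reads on ATCG00790, were chosen after seeing the data. The cause of these shifts was not tested. Few reads limit what can be said of single photosynthesis and tRNA genes.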
